A study of Bos grunniens with 9 samples.

Results

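The 10 genes described here belong to the circadian clock: the activator CLOCK, the period genes PER1, PER2 and PER3, the cryptochromes CRY1 and CRY2, the nuclear receptors NR1D1 and NR1D2 (REV-ERB alpha and beta), and the bZIP factors DBP and TEF. They were taken by symbol from 21652 genes, each symbol matched 1 identifier, and all 10 passed the filter on low counts that left 13936 genes for testing. Ribosome profiling, which sequences the stretches of mRNA that ribosomes shield from RNase, was run on ovaries of 6-year-old yaks (Bos grunniens). The 3 groups were anestrus ovaries taken in April, estrus ovaries taken in August and ovaries of pregnancy taken in December, with 3 biological replicates each and 9 libraries in all. No treatment or genotype is given in the labels. Stage and month coincide in this design, so reproductive stage and season cannot be told apart. The labels give no time of day for the collection of any ovary.

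The mammalian clock is a transcription loop. CLOCK, or its relative NPAS2, pairs with BMAL1 (symbol ARNTL in these files) and drives the genes of the PER and CRY repressors, of the REV-ERB receptors and of DBP. PER and CRY proteins then shut down CLOCK and BMAL1, the REV-ERB receptors repress ARNTL, and DBP, TEF and their relative HLF carry the rhythm to further genes. In the ovary, clock genes cycle over the day in granulosa, theca and luteal cells of rodents. PER, NR1D1 and DBP transcripts swing widely over a day in many mammalian tissues, whereas CLOCK is nearly flat.

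The libraries held between 1.47 M and 28.94 M footprint counts (M, 1e6). Every anestrus library was deeper than every other library, and the shallowest was pregnancy replicate 3. In earlier results of these data 2 libraries stood apart from the rest, anestrus replicate 2 and pregnancy replicate 3, and values without them are given where they matter. Ovarian markers were present: 5 granulosa markers (FOXL2, AMH, FSHR, INHA, CYP19A1) summed to between 155 and 1960 CPM (counts per 1e6 counts) over the 9 libraries and 4 theca markers (CYP17A1, INSL3, STAR, CYP11A1) to between 326 and 5378 CPM. The 5 oocyte markers (ZP3, GDF9, BMP15, DDX4, ZAR1) summed to between 0.329 and 15.7 CPM. In these bulk samples, fewer cells of a type and fewer footprints per cell cannot be told apart, nor can mRNA amount and translation.

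Per length, the clock genes spanned a 23-fold range of footprint level, led by TEF and NR1D2. Mean FPKM (footprints per kilobase and per 1e6 mapped footprints, as deposited) over the 9 libraries was 40.5 ± 13.1 for TEF, 26 ± 5.65 for NR1D2 and 18.8 ± 7.72 for DBP (SD, n = 9). CRY2 followed at 8.38 ± 2.37, CRY1 at 6.36 ± 1.29, PER1 at 5.46 ± 1.84, CLOCK at 5.43 ± 1.16 and NR1D1 at 5.19 ± 2.55. PER2, at 1.92 ± 0.777, and PER3, at 1.76 ± 1.08, were lowest. The median tested gene had 12.3 FPKM, so 3 clock genes lay above it, TEF at the 77.6th percentile, NR1D2 at the 68.8th and DBP at the 61.2th.

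Some steps of this order held in every library and others did not. TEF exceeded NR1D2 in 9 of 9 libraries, DBP exceeded CRY2 in 9 of 9 and NR1D1 exceeded PER2 in 9 of 9. NR1D2 exceeded DBP in 7 of 9 and CRY2 exceeded CRY1 in 7 of 9. CRY1, PER1, CLOCK and NR1D1 did not separate, since CRY1 exceeded PER1 in 4 libraries, PER1 exceeded CLOCK in 6 and CLOCK exceeded NR1D1 in 6. PER2 and PER3 were likewise interleaved, with PER2 above PER3 in 5 libraries. The lengths behind these values, recomputed from counts and FPKM, were 3.8 kb for PER1, 3.91 kb for PER2 and 2.57 kb for CLOCK but 1.15 kb for PER3, so the PER3 level rests on a short gene model as well as on few counts.

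**Figure D1:**
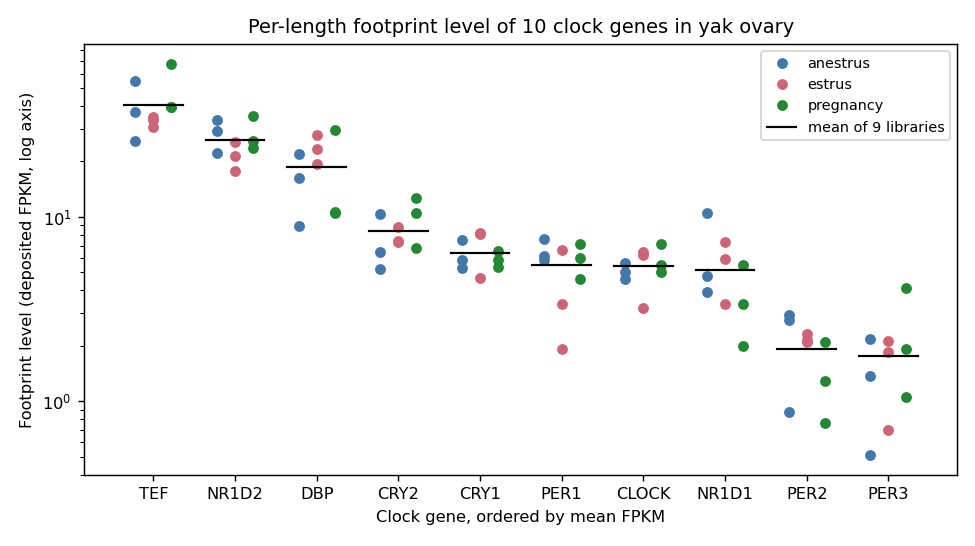
Deposited FPKM (y axis, log scale) of the 10 clock genes (x axis, ordered by mean) in the 9 libraries, with 1 point per library coloured by stage and a line at the mean of 9. TEF, NR1D2 and DBP lie highest and PER2 and PER3 lowest. TEF in pregnancy lies wholly above estrus and PER2 in pregnancy wholly below it.

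Of the activators, CLOCK was the steadiest clock gene across stages. Its TMM-normalised level was 13.1, 13.5 and 14 CPM in anestrus replicates 1 to 3, 15.3, 8.81 and 17 CPM in estrus replicates 1 to 3 and 12.4, 14.2 and 16.1 CPM in pregnancy replicates 1 to 3. The anestrus libraries lay within a 1.07-fold range, and estrus held both the lowest and the highest library. CLOCK had a log2 fold change of 0.01 ± 0.27 (SE) in estrus over anestrus, with a 95% interval of -0.58 to 0.61, of 0.05 ± 0.28 in pregnancy over estrus and of 0.06 ± 0.28 in pregnancy over anestrus (-0.55 to 0.67). The range of its stage means on the log2 scale was 0.10, smaller than in all but 4% of tested genes.

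The partners of CLOCK sat at very different footprint levels. ARNTL had 4.65 ± 2.44 FPKM over the 9 libraries, near CLOCK, whereas the NPAS2 row had 141 ± 42.9 FPKM (SD, n = 9) and exceeded CLOCK in 9 of 9 libraries by 14 to 49.3 times. The length implied for NPAS2 was 0.73 kb, shorter than for CLOCK, so the ratio also depends on that gene model. In counts, which are not divided by length but still depend on the gene model, NPAS2 had 11213 over all libraries and CLOCK 1217. ARNTL stood at 4.54, 3.87 and 13.8 CPM in estrus, against 8.41, 4.98 and 8.47 CPM in anestrus, and at 10.3, 5.28 and 13.7 CPM in pregnancy. These groups overlap, and the difference of ARNTL in pregnancy over anestrus was 0.39 ± 0.53 on the log2 scale. NPAS2 had -0.27 ± 0.35 in estrus over anestrus and -0.58 ± 0.35 in pregnancy over anestrus, with adjusted p = 0.877 and 0.723 in edgeR. ARNTL2 was too low to be tested, with 0 to 10 counts per library.

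PER1, the period gene that also answers quickly to hormones and cAMP, had the largest difference between estrus and anestrus of the 10 genes. It stood at 7.05, 13.4 and 25.3 CPM in estrus replicates 1 to 3, against 22.6, 26.8 and 27.9 CPM in the anestrus replicates. Estrus replicates 1 and 2 lay below every anestrus library, while estrus replicate 3 lay among them. The log2 fold change was -0.76 ± 0.38 (SE), with a 95% interval of -1.60 to 0.07 and adjusted p = 0.715 in edgeR. It was -1.32 without estrus replicate 3 and -0.42 without estrus replicate 1. In pregnancy PER1 had 21.5, 17.1 and 23.9 CPM, a log2 fold change of 0.45 ± 0.39 over estrus, which was 1.00 without estrus replicate 3 and 0.10 without estrus replicate 1, and of -0.32 ± 0.38 over anestrus.

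PER2, a core repressor, was the clock gene whose pregnancy libraries all lay below its estrus libraries. It had 2.87, 5.08 and 7.16 CPM in pregnancy, against 7.99, 9.78 and 8.43 CPM in estrus, and anestrus spanned both at 3.51, 13.2 and 10.4 CPM. Anestrus replicate 1 lay with the pregnancy libraries and anestrus replicates 2 and 3 lay above every estrus library. The log2 fold change was -0.89 ± 0.51 in pregnancy over estrus (95% interval -2.01 to 0.23, adjusted p = 0.707 in edgeR) and -0.94 ± 0.50 in pregnancy over anestrus (adjusted p = 0.718). With single libraries left out the first ran from -1.17 to -0.55, the latter without pregnancy replicate 1. The second was -1.33 without anestrus replicate 1, -0.56 without anestrus replicate 2 and -0.61 without pregnancy replicate 1. The gap to estrus was narrow: pregnancy replicate 3 rests on 12 counts and had 2.09 FPKM, against 2.11 FPKM in estrus replicate 3. In estrus over anestrus the value was -0.05 ± 0.46.

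PER3, the period gene that is dispensable for rhythms in mice, was counted by 7 to 39 footprints per library, too few for a firm level. It had 1.17, 2.24 and 4.17 CPM in pregnancy, 2.35, 0.871 and 2.19 CPM in estrus and 2.58, 0.672 and 1.53 CPM in anestrus. The groups overlap, and the highest library, pregnancy replicate 3, rests on 7 counts, whose exact Poisson 95% interval, on library totals without the TMM factor, runs from 1.92 to 9.82 CPM and covers counting error only. The interval of the log2 difference in pregnancy over anestrus ran from -1.06 to 2.12 around 0.53.

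The cryptochromes, which hold CLOCK and BMAL1 in check, had log2 fold changes whose 95% intervals all spanned 0. CRY1 had 13.9, 9 and 15 CPM in estrus, against 10.7, 10.9 and 13 CPM in anestrus, and 10.1, 11.8 and 8.35 CPM in pregnancy. CRY2 had 12.8, 14.5 and 16.5 CPM in estrus, against 12, 11 and 18.3 CPM in anestrus, and 11.9, 19.3 and 20.3 CPM in pregnancy. In both genes every pair of stages overlapped. Log2 fold changes in estrus over anestrus were 0.13 ± 0.27 for CRY1 (95% interval -0.46 to 0.72) and 0.09 ± 0.29 for CRY2 (-0.54 to 0.72). In pregnancy over anestrus they were -0.17 ± 0.27 (-0.78 to 0.43) and 0.30 ± 0.29 (-0.35 to 0.94), in the same order. In pregnancy over estrus CRY1 had -0.30 ± 0.28 (-0.91 to 0.31), its largest change, which was -0.51 without estrus replicate 2. CRY2 had 0.21 ± 0.295 there (-0.45 to 0.86). The CRY2 value in pregnancy over anestrus moved with single libraries, to 0.56 ± 0.31 without anestrus replicate 3, 0.52 ± 0.30 without pregnancy replicate 1 and 0.15 ± 0.32 without anestrus replicate 2, and was -0.28 with log2 library size in the model.

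NR1D1 and NR1D2 encode heme-binding repressors of ARNTL, and NR1D2 gave more footprints per length in every library. NR1D1 had 3.61, 6.3 and 8.94 CPM in pregnancy, against 9.07, 8.42 and 19 CPM in anestrus and 5.95, 11.9 and 14 CPM in estrus. The pregnancy libraries were low and 1 anestrus library, replicate 3, was high, but the groups overlap. The log2 fold change of NR1D1 was -1.04 ± 0.48 in pregnancy over anestrus (95% interval -2.09 to 0.01), the largest of the 30 values for the 10 genes, with an unadjusted p = 0.0526 and an adjusted p = 0.718 in edgeR. It was -0.56 without anestrus replicate 3 and -1.32 without pregnancy replicate 3, -1.53 without both libraries that stand apart and -1.94 ± 0.63 with log2 library size in the model. Every anestrus library was deeper than every pregnancy library, so that model separates depth from stage poorly. In pregnancy over estrus NR1D1 had -0.85 ± 0.48, and -0.52 without pregnancy replicate 1. In estrus over anestrus it had -0.19 ± 0.44, which turned to 0.28 without anestrus replicate 3 and to 0.09 without estrus replicate 1.

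NR1D2 varied least of the 10 genes between replicates. It had 30.1, 40.5 and 46 CPM in estrus, against 52.7, 45.1 and 57 CPM in anestrus, and 43.7, 42.3 and 54.3 CPM in pregnancy. Estrus replicate 3 overlapped anestrus replicate 2, and the other estrus libraries lay below all anestrus libraries. The log2 fold change in estrus over anestrus was -0.41 ± 0.21 (95% interval -0.87 to 0.06, adjusted p = 0.722 in edgeR), and -0.26 without estrus replicate 1. In pregnancy NR1D2 differed by 0.26 ± 0.21 from estrus, and by 0.10 without estrus replicate 1. It differed by -0.15 ± 0.21 from anestrus, with -0.07 without anestrus replicate 3 and -0.26 without pregnancy replicate 3.

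DBP, the most strongly cycling of the PAR bZIP activators in mouse liver, had its highest single library in estrus in TMM-normalised CPM. It stood at 22.6, 30.2 and 19.9 CPM in estrus, against 16.7, 10.4 and 21.5 CPM in anestrus, and at 10.2, 10.8 and 26.2 CPM in pregnancy. Pregnancy replicates 1 and 2 lay near the lowest anestrus library, and pregnancy replicate 3 lay within the estrus range. On deposited FPKM, pregnancy replicate 3 was instead the highest library, at 29.75 against 27.98 in estrus replicate 2. The log2 fold change was 0.59 ± 0.39 in estrus over anestrus (95% interval -0.26 to 1.45), 0.34 without anestrus replicate 2 and 0.11 with log2 library size in the model. In pregnancy over estrus it was -0.70 ± 0.40 (-1.60 to 0.19, adjusted p = 0.71 in edgeR) and was -1.21 without pregnancy replicate 3 and -0.45 without pregnancy replicate 1, where the gene again did not pass.

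TEF, a PAR bZIP relative of DBP, was the clock gene whose pregnancy libraries all lay above its estrus libraries. It had 36.5, 38.8 and 57.2 CPM in pregnancy, against 31.5, 32.2 and 34.2 CPM in estrus, and 36.1, 28.5 and 51.9 CPM in anestrus. The gap to the highest estrus library was narrow in pregnancy replicates 1 and 2. The log2 fold change in pregnancy over estrus was 0.42 ± 0.26 (95% interval -0.16 to 1.00, adjusted p = 0.734 in edgeR), and 0.21 without pregnancy replicate 3. In estrus over anestrus TEF had -0.25 ± 0.26 and in pregnancy over anestrus 0.17 ± 0.26.

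**Figure D2:**
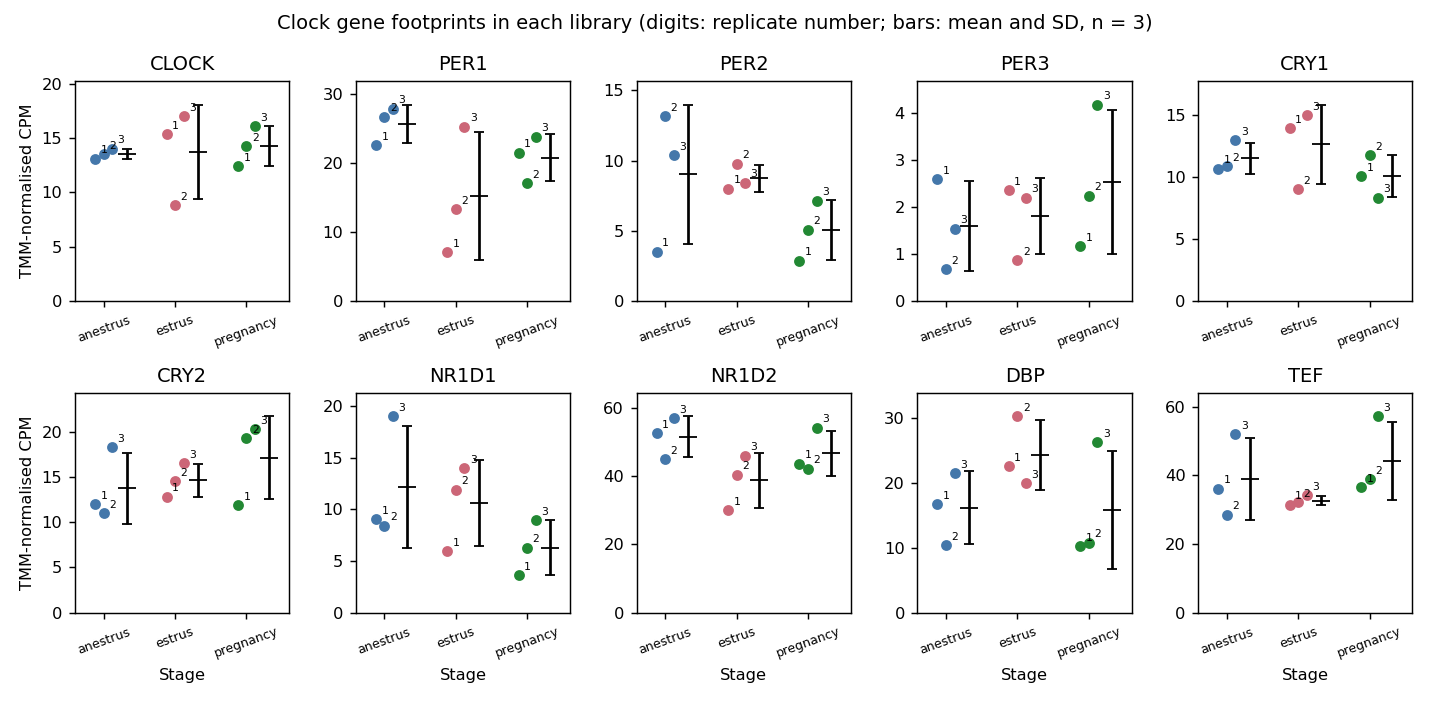
TMM-normalised CPM (y axis, linear from 0) of each clock gene in the 3 libraries of each stage (x axis), with the replicate number beside each point and a bar for the mean and SD of 3. PER2 in pregnancy lies below 7.99 CPM, its lowest estrus library, and the other stage pairs overlap in every gene except TEF in pregnancy against estrus.

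Across the 3 comparisons, 0 of 10 clock genes passed the edgeR quasi-likelihood test with Benjamini-Hochberg adjustment over all genes, and 0.0% of all 13936 genes did. At an unadjusted p under 0.05, 0 of 10 clock genes passed in each comparison, against 7.04% of all genes for estrus versus anestrus, 7.43% for pregnancy versus estrus and 6.82% for pregnancy versus anestrus. Other fits gave more at that unadjusted threshold. With limma-voom and quality weights 2 of 10 passed in estrus versus anestrus (PER1, NR1D2; 11.4% of all genes), 3 for pregnancy versus estrus (PER1, PER2, DBP; 12.9%) and 2 for pregnancy versus anestrus (NR1D1, DBP; 9.15%). With a replicate block the counts were 2 (PER1, NR1D2; 8.45%), 2 (PER2, NR1D1; 9.54%) and 1 (NR1D1; 8.04%) in the same order of comparisons. With log2 library size in the model they were 2 (NR1D2, TEF; 8.76%), 2 (NR1D1, DBP; 6.55%) and 2 (NR1D1, DBP; 5.28%). Without the 2 libraries that stand apart they were 1 (NR1D2; 5.16%), 2 (PER2, DBP; 8.24%) and 2 (NR1D1, DBP; 4.64%). None of these passed after adjustment, where the smallest adjusted p over all settings was 0.254 (DBP in pregnancy over estrus, limma-voom). A DESeq2 fit of the same counts called 15, 29 and 30 genes over the genome in these comparisons and 0 of 10 clock genes in each. The 3 stages tested together in edgeR gave 0 clock genes as well (7.16% of all genes had an unadjusted p under 0.05), with NR1D1 the smallest at an unadjusted p = 0.129 (adjusted p = 0.7). In limma-voom with quality weights, 4 of 10 had an unadjusted p under 0.05 there (PER1, NR1D1, NR1D2, DBP), beside 1853 of 13936 genes. The replicate block gave 1 (1252 genes), log2 library size in the model 2 (1063 genes). Leaving out the 2 libraries that stand apart gave 1 (873 of 14098 genes). None of these passed after adjustment.

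The fold changes of the clock genes did not lean one way. In estrus over anestrus 5 of 10 were positive, with a median of -0.02 beside -0.01 over all genes, of which 49.2% were positive and 50.8% negative. In pregnancy over estrus 6 were positive (median 0.13 beside 0.01, 50.6% of all genes positive and 49.4% negative), and in pregnancy over anestrus 4 (median -0.13 beside 0.00, 50.1% of all genes positive and 49.9% negative). In estrus versus anestrus, 0 of 10 clock genes had groups without overlap, beside 11.6% of all genes (5.22% higher in estrus, 6.42% lower). In pregnancy versus estrus there were 2, TEF (higher, as were 7.05% of all genes) and PER2 (lower, as were 6.59%), beside 13.6% in either direction. For pregnancy versus anestrus the count was again 0 of 10, beside 12.8% of all genes (5.88% higher, 6.91% lower). The comparisons share libraries, so they are not independent.

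**Figure D3:**
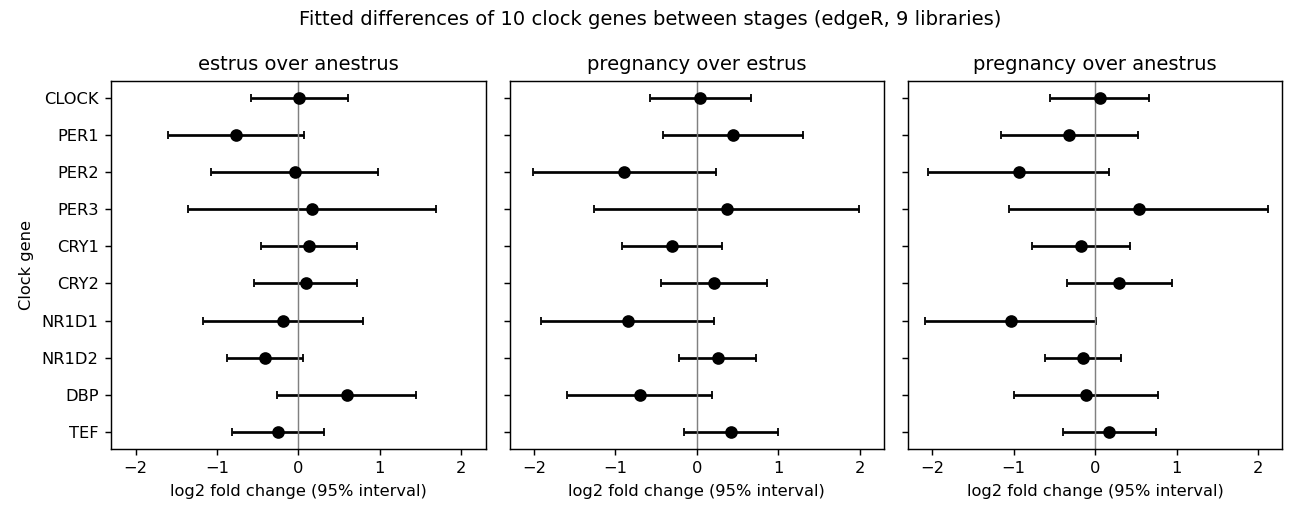
Log2 fold change from edgeR (x axis, points) with its 95% interval (bars) for the 10 clock genes (y axis) in estrus over anestrus, pregnancy over estrus and pregnancy over anestrus. The bar of every gene crosses 0, with NR1D1 in pregnancy over anestrus (-2.09 to 0.01) and PER1 in estrus over anestrus (-1.60 to 0.07) crossing it by the least.

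Replicates of one stage differed unequally between the genes. The biological coefficient of variation, the spread between libraries beyond counting error fitted by edgeR, was 53.4% for PER3, 41.2% for PER2, 39.3% for NR1D1, 34.3% for DBP and 33.6% for PER1. It was 26.8% for CRY2, 25.4% for CLOCK, 25% for CRY1, 24.6% for TEF and 21% for NR1D2. The first 5 lay between the 63.5th and the 89th percentile of all tested genes and the other 5 between the 10.7th and the 42.6th. In the most variable stage the ratio of highest to lowest library was 3.84 for PER3 (anestrus), 3.75 for PER2 (anestrus) and 3.59 for PER1 (estrus). It was 2.58 for DBP (pregnancy) and 2.48 for NR1D1 (pregnancy), against 1.93 for CLOCK (estrus).

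In TMM-normalised CPM no library was extreme for all genes, and 7 of 9 held the highest or lowest value of at least 1. Anestrus replicate 3 was highest for PER1, NR1D1 and NR1D2, and pregnancy replicate 3 for PER3, CRY2 and TEF. Pregnancy replicate 1 was lowest for PER2, NR1D1 and DBP, and anestrus replicate 2 for PER3, CRY2 and TEF. Over the 9 libraries the log2 levels of PER3, CRY2 and TEF had a Pearson r of -0.786, -0.723 and -0.621 with the log2 library total, and the part of depth in their levels was not tested. For the other 7 genes this r lay between -0.45 and 0.181.

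The clock genes did not vary as one block. Over the 45 pairs, Pearson r of log2 CPM across the 9 libraries had a median of 0.194 and ran from -0.323 (PER2 with PER3) to 0.896, and 34 pairs were positive. These r are descriptions over libraries that share depth and composition, and no test was made. With each library set against its stage mean, the median was 0.297, and the pairs of CRY2 with NR1D1 (0.919), DBP with TEF (0.868), NR1D1 with NR1D2 (0.836) and CRY2 with TEF (0.811) were high, with r over all libraries of 0.418, 0.316, 0.492 and 0.761. Without the 2 libraries that stand apart these 4 pairs had 0.531, -0.179, 0.524 and 0.545, so the sign of DBP with TEF turned.

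The closest pair was PER1 with NR1D2, at r = 0.896 and Spearman rho = 0.85 (n = 9). Among 10951 named genes at 5 CPM or more, PER1 ranked 11th for NR1D2, and NR1D2 ranked 21st for PER1. The stage-centred r was 0.815. Estrus replicates 1 and 2, low in both genes, carried much of it: without them r was 0.567 over 7 libraries. Without anestrus replicate 3 and estrus replicate 1, the farthest from the median of NR1D2, it was 0.622. Without the 2 libraries that stand apart it was 0.938.

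TEF followed HLF, the other PAR bZIP activator, at r = 0.922 and rho = 0.733, which made HLF the 8th of 10951 genes for TEF. Pregnancy replicate 3 and anestrus replicate 3 were high in both, with 57.2 and 51.9 CPM of TEF and 28 and 21.9 CPM of HLF, and without these libraries r was 0.484. CRY2 was nearest to RORA among the clock partners, at r = 0.788 and rho = 0.767 (86th of 10951), with 0.667 without pregnancy replicates 2 and 3. RORA encodes the receptor that activates ARNTL where the REV-ERB proteins repress it. CLOCK and ARNTL, whose proteins pair, had r = 0.576, which was 0.019 without estrus replicates 2 and 3. CRY2 ran opposite to the NPAS2 row, at r = -0.943 and rho = -0.867, the lowest of the 10951 genes for CRY2, with -0.898 without pregnancy replicates 2 and 3, -0.933 around stage means and -0.903 without the 2 libraries that stand apart. The CRY2 level also had r = -0.723 with the log2 library total, and the part of depth in this tie was not tested.

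**Figure D4:**
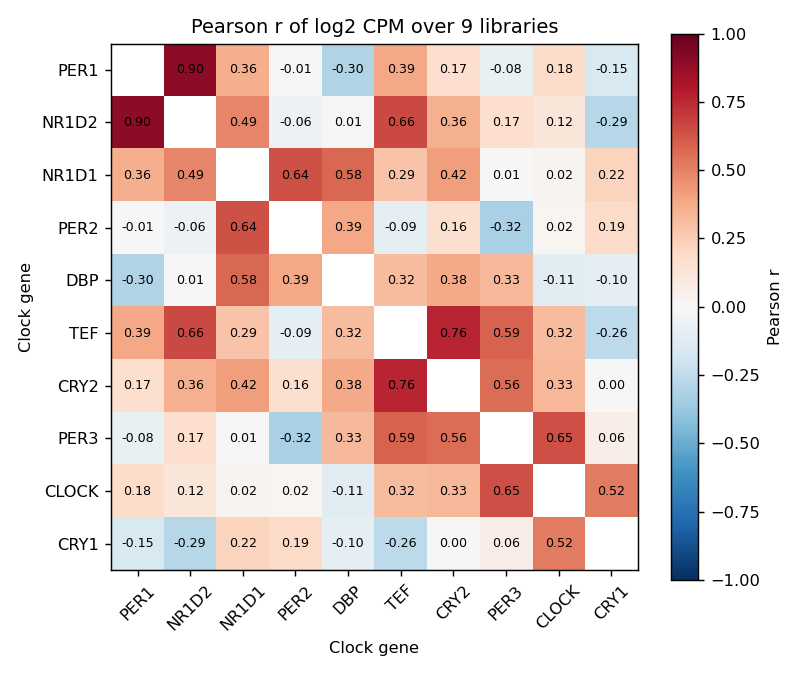
Pearson r of log2 CPM across the 9 libraries for each pair of clock genes (both axes), coloured from -1 to 1 with the value in each cell. PER1 with NR1D2 (0.896) and CRY2 with TEF (0.761) are the highest, and PER2 with PER3 (-0.323) is the lowest.

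None of the 3 genes nearest to each clock gene stood on the lists of clock genes. For CLOCK they were TRPC1 (r = 0.949), AGO3 (0.931) and ARHGAP39 (0.925), and for PER1 MYO1F (0.951), CHRD (0.948) and SQOR (0.939). For PER2 they were SEC22B (0.968), CD248 (0.933) and ASB6 (0.927), and for PER3 L3mbtl1 (0.956), MARCHF2 (0.954) and EPB41L5 (0.942). CRY1 had BCAT2 (0.922), GSS (0.901) and MAP3K1 (0.887), and CRY2 had KLHL25 (0.963), CAMK1 (0.957) and PRR14 (0.943). NR1D1 had TGFB1I1 (0.945), DNAJB2 (0.931) and HSD11B2 (0.929), and NR1D2 had TENT4B (0.936), PLCL1 (0.932) and ING1 (0.926). DBP had SCYL2 (0.922), SAFB (0.902) and PRDM10 (0.895), and TEF had PIP4K2B (0.958), LTBP4 (0.954) and CAPN5 (0.937). All are Pearson r over the same 9 libraries, ranked among 10951 genes (10952 for PER3).

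A ratio of related genes within a library does not depend on library scaling. The ratio of DBP to TEF on the FPKM scale was 0.701, 0.905 and 0.552 in estrus, against 0.439, 0.347 and 0.401 in anestrus and 0.264, 0.269 and 0.438 in pregnancy. All 3 estrus libraries lay above all 6 others. The mean ratio was 0.719 ± 0.177 in estrus and 0.396 ± 0.046 in anestrus (SD, n = 3 each), a log2 difference of 0.84, and the log2 difference of pregnancy (0.324 ± 0.099) minus estrus was -1.16. A 2-sided permutation test of the DBP to TEF ratio gave p = 0.1 in estrus versus anestrus and p = 0.1 in pregnancy versus estrus. With 3 libraries per stage, full separation gave no smaller p in this permutation test, so it could not reach 0.05.

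The ratio of NR1D1 to NR1D2 was 0.078, 0.143 and 0.157 in pregnancy, against 0.189, 0.278 and 0.287 in estrus and 0.163, 0.176 and 0.315 in anestrus. All 3 pregnancy libraries lay below all others (log2 difference -1.04 from estrus and -0.79 from anestrus). CRY1 over CRY2 overlapped between all stages, at 0.865, 0.623 and 0.42 in pregnancy and 1.11, 0.632 and 0.926 in estrus. In pregnancy against estrus the ratios of PER1 to PER2 (higher) and of PER2 to PER3 (lower) did not overlap either. The 6 ratios (NPAS2 to CLOCK was the last) were chosen after the values were seen, and how often ratios of other gene pairs separate the stages was not computed, so they are a description only.

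**Figure D5:**
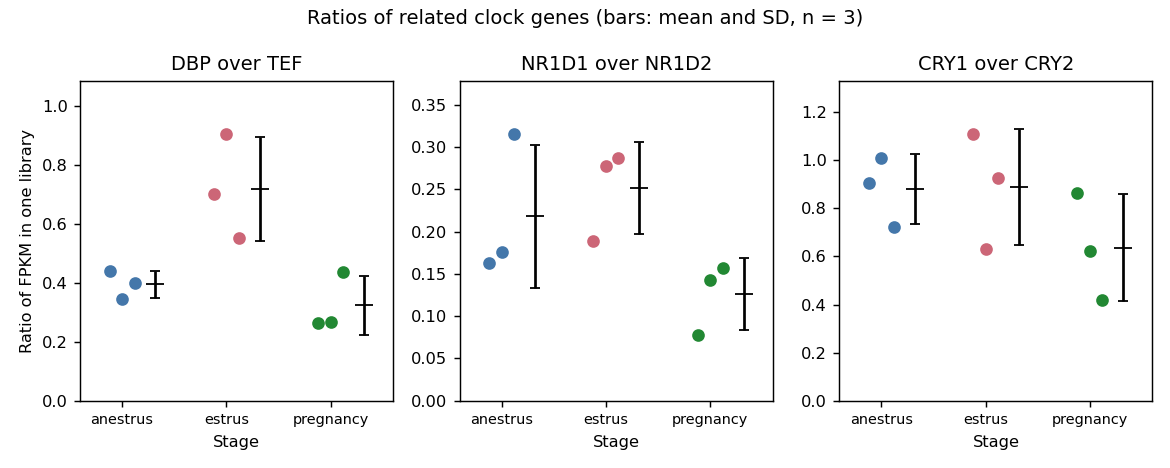
Ratio of FPKM within a library (y axis, linear from 0) for DBP over TEF, NR1D1 over NR1D2 and CRY1 over CRY2, by stage (x axis), with 1 point per library and a bar for the mean and SD of 3. The DBP to TEF ratio is at least 0.552 in the 3 estrus libraries and at most 0.439 in the other 6.

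A score of repressor and output genes against activators, which leaves out CRY1 and CRY2, had stage means closer together than its replicates. The mean log2 CPM of the 7 repressor and output genes (PER1, PER2, PER3, NR1D1, NR1D2, DBP, TEF) minus that of CLOCK, ARNTL and NPAS2 was -0.91, -0.92 and -0.23 in anestrus, -0.91, -0.33 and -0.70 in estrus and -1.44, -0.61 and -0.45 in pregnancy. It averaged -0.69 ± 0.39, -0.65 ± 0.30 and -0.83 ± 0.53 in that order (SD, n = 3 each). The lowest library was pregnancy replicate 1, which was also the lowest for PER2, NR1D1 and DBP.

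The other genes of the loop passed no edgeR test either, with 0 of 9 tested in each comparison, beside 0.0% of all 13936 genes. BHLHE40 (DEC1), a repressor of CLOCK and BMAL1, had -1.24 ± 0.49 in estrus over anestrus and -1.42 ± 0.51 in pregnancy over anestrus on the log2 scale (adjusted p = 0.704 and 0.718 in edgeR). Its levels were 13.8, 12.5 and 16.5 CPM in estrus and 11.3, 8.94 and 19.1 CPM in pregnancy, against 16.1, 64.9 and 19.8 CPM in anestrus, where replicate 2 alone was high. BHLHE41 (DEC2) had 0.93 ± 0.49 in pregnancy over estrus and RORB 1.46 ± 0.67, at 3.61, 2.03 and 5.37 CPM in pregnancy against 2.35, 0.387 and 1.18 CPM in estrus. RORA was at 14, 15.9 and 25 CPM in pregnancy, above all anestrus libraries at 11.1, 9.45 and 13.4 CPM (0.66 ± 0.32, adjusted p = 0.718). RORB in pregnancy also lay above all its anestrus libraries, at 1.66, 1.98 and 2.02 CPM (0.90 ± 0.63). That gap was narrow in pregnancy replicate 2. In pregnancy versus anestrus 5.88% of all genes were higher without overlap. HLF (0.23 ± 0.43), CIART, a repressor of CLOCK and BMAL1 (-0.15 ± 0.64), and TIMELESS (-0.47 ± 0.44) overlapped in that comparison.

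Of 37 tested clock modifiers (kinases, ubiquitin ligases, corepressors), 29 clock outputs and 4 photoperiod and melatonin genes, 0 passed in any comparison. The share over all 13936 genes in the edgeR fit was 0.0% as well. At an unadjusted p under 0.05 in edgeR, 1 modifier, 5 outputs and 2 photoperiod genes passed in estrus versus anestrus (7.04% of all genes). In pregnancy versus estrus they were 3, 3 and 0 (7.43%), and in pregnancy versus anestrus 2, 6 and 1 (6.82%). NOCT (nocturnin), a clock-controlled phosphatase, was at 3.29, 4.47 and 1.79 CPM in pregnancy, against 4.77, 12.8 and 9.27 CPM in anestrus (-1.42 ± 0.45, adjusted p = 0.718 in edgeR). VIPR2, the VIP receptor through which clock neurons are kept in step in mice, was at 85.3, 60.2 and 97 CPM in estrus, against 191, 155 and 129 CPM in anestrus (-0.97 ± 0.23, adjusted p = 0.704). PTGDS, a prostaglandin D2 synthase, was at 160, 120 and 271 CPM in estrus, against 105, 103 and 103 CPM in anestrus (0.82 ± 0.29). These were among the genes with the smallest unadjusted p of their lists. PPARD (0.90 ± 0.35) and HNRNPU (-0.51 ± 0.23) in pregnancy over estrus, and PRKAA2 (1.21 ± 0.44) and CHGA (0.90 ± 0.46) in pregnancy over anestrus, were others. SIK1, also among them, was high in anestrus replicate 2 alone, at 171 CPM.

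Marker genes of other cell types varied beside the clock genes. NR1D1 had r = 0.791 with the summed level of 4 smooth muscle markers (ACTA2, MYH11, DES, CNN1) over the 9 libraries, which ran from 8770 to 11230 CPM in pregnancy libraries, from 7924 to 17740 CPM in estrus and from 9163 to 15570 CPM in anestrus. In the edgeR fit 0 of these 4 markers passed. In pregnancy over anestrus, where NR1D1 had its largest difference, all 4 had a negative log2 fold change (median -0.63, beside 0.00 over all genes). In TMM-normalised CPM all 4 were lower without overlap, beside 6.91% of all genes, and 1 had an unadjusted p under 0.05, beside 6.82%. The sums above are on library totals, where pregnancy and anestrus overlap, so the separation of all 4 depends on the scaling. Other marker lists moved there too. The 4 endothelial (median -0.52) and 4 epithelial markers (-1.10) were all negative, and the 4 theca markers were all positive (1.69). PER1 had r = -0.758 with the 5 granulosa markers. These ran from 429 to 1960 CPM in estrus, from 155 to 1057 CPM in anestrus and from 421.5 to 1567 CPM in pregnancy. DBP had r = 0.867 with 3 erythroid markers (HBB, HBA, ALAS2). These ran from 4.91 to 19 CPM in estrus, from 3.59 to 6.75 CPM in anestrus and from 2.87 to 11.6 CPM in pregnancy. Only estrus replicate 2 (19 CPM) and pregnancy replicate 3 (11.6 CPM) lay above 6.75 CPM. The former was also the highest library for DBP in TMM-normalised CPM, and the latter was the highest on library totals. The r of DBP with these markers was not computed without those libraries. These are descriptions over 9 libraries from 110 such pairs of a clock gene and a marker list. Other large values were -0.814 for PER3 and -0.78 for CRY2 with the endothelial markers, -0.716 for CLOCK with the epithelial markers and 0.704 for TEF with the T cell markers. The part of cell makeup in the clock gene levels was not tested. Of these marker lists none had a member at 0 in every library.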

How the data were processed

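Per the submitters' processing notes, Bowtie2 and RSEM were used; no version, genome build or annotation is named in the sources read, and row identifiers are cattle Ensembl IDs. The authors deposited estimated counts per gene and library, stored as whole numbers, and FPKM values, per length and library total. The authors deposited comparison tables whose log2 fold change recomputes as the log2 ratio of mean FPKM per the file headers; the pregnancy and anestrus table runs anestrus over pregnancy, and its sign was turned here. The p-value and FDR in these tables were made by the authors with a test that no header names.

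Counts were joined by identifier. Members were matched by symbol. edgeR 4.0.16 in R 4.3.3 was fitted to all 9 libraries with stage as the term: filterByExpr left 13936 genes, TMM factors ran from 0.876 to 1.144, the common biological coefficient of variation was 34.5%, and adjusted p under 0.05 was a call. CPM are TMM-normalised; marker sums use library totals. Log2 CPM for correlations used a prior count of 2. SE and 95% intervals come from the edgeR fit. The floor is 3 counts, 2.04 CPM in the shallowest library. The labels do not tie replicates to animals beyond calling them biological, so a p-value reflects spread among these libraries, which may be technical.

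Named genes were the 10 members, the loop partners, up to 2 genes per other list and comparison by smallest unadjusted p, and the 3 genes nearest to each member by r. Some genes that this rule names are not reported here. Members and lists were chosen with earlier results of these data known. Alternatives were DESeq2 1.42.0, limma 3.58.1 (voom with quality weights), other scalings and filters, a replicate block, library size as a covariate, summed identifiers, 6-library fits, the authors' deposited table and leaving libraries out. NFIL3 was not analysed here.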

Additional observations from a re-analysis of the deposited data

How the results depend on the processing

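Of the 30 fold changes of clock genes, 15 kept their sign under every alternative and 15 turned in at least 1; the smallest adjusted p of any was 0.254, and 0 clock genes were called under any setting, the authors' deposited table included. Over all genes, DESeq2 called 15, 29 and 30 genes in estrus versus anestrus, pregnancy versus estrus and pregnancy versus anestrus and 57 over the 3 stages, and the authors' deposited table lists 31, 23 and 36. Leaving out single libraries gave 0 to 2, 0 to 1, 0 to 0 and 0 to 1 calls, the 2 and the last 1 without estrus replicate 3 and the other 1 without pregnancy replicate 3.

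With log2 library size in the model, values turned to -0.26 (CLOCK), -0.89 (PER3) and -0.24 (CRY2) in estrus over anestrus, to -0.10, -0.34 and -0.046 in pregnancy over estrus, and to -0.36, -1.24 and -0.28, with -0.45 for TEF, in pregnancy over anestrus. In voom they turned to -0.064 (CLOCK), 0.22 (PER2) and -0.08 (CRY2) in estrus over anestrus, to -0.088 (PER3) in pregnancy over estrus, and to -0.043 (CLOCK), -0.037 (CRY2) and -0.14 (TEF) in pregnancy over anestrus. Without both libraries that stand apart they turned to 0.34 (PER2), -0.22 (PER3) and -0.051 (CRY2) in estrus over anestrus, to -0.037 (CLOCK) and -0.093 (PER3) in pregnancy over estrus, and to -0.032 (CLOCK), -0.32 (PER3) and -0.23 (TEF) in pregnancy over anestrus. DBP in pregnancy over anestrus was 0.022 with library size alone and 0.11 in the authors' deposited table, where PER2 in estrus over anestrus was 0.002. Depth and stage are poorly separated in the fit with log2 library size, since every anestrus library was deeper than every other library. The cause of these turns was not tested.

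Leaving out single libraries, values ran in estrus over anestrus from -0.18 to 0.26 (CLOCK), -0.43 to 0.33 (PER2), -0.22 to 0.71 (PER3), -0.011 to 0.33 (CRY1), -0.053 to 0.35 (CRY2), -0.43 to 0.28 (NR1D1) and -0.44 to 0.016 (TEF). They ran in pregnancy over estrus from -0.21 to 0.23 (CLOCK) and -0.093 to 0.78 (PER3), and in pregnancy over anestrus from -0.028 to 0.15 (CLOCK), -0.62 to 0.15 (DBP) and -0.045 to 0.44 (TEF).

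The median r of the 45 pairs was 0.336 on FPKM and 0.297 around stage means, and ran from 0.118 (without anestrus replicate 3) to 0.339 (without estrus replicate 2) with single libraries left out. A filter of 5 CPM in 3 libraries dropped PER3. The replicate block turned CLOCK (-0.02) and PER2 (0.12) in estrus over anestrus and called 0 clock genes; deviations from stage means correlated from -0.029 to 0.261 in same-numbered libraries, with 5 of 9 pairs over 0.1, and from -0.268 to 0.139 in differently numbered ones, with 3 of 18 over 0.1. The labels do not say that the numbers pair animals, so the main fit held no block. These correlations cannot decide whether same-numbered libraries are paired.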
